A study of Mus musculus with 2 samples.

Results

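The genes of the proteasome, the particle that degrades ubiquitin-tagged proteins, were compared between a pathogenic and a non-pathogenic Th17 culture of mouse CD4 T cells. They were chosen by name, as every row of the count table whose symbol starts with Psm, a letter from a to g and a digit. The rule found 50 of the 22036 features with an Ensembl identifier. Of these, 49 are proteasome genes, and the other is Psmc3ip, which encodes a partner of meiotic recombinases and only shares the start of its symbol. A mean over both libraries of 1 CPM or more (CPM is a count scaled to the size of its library) was reached by 47 of the 49, and by 10597 features of the whole table.

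The T cells were taken from wild-type mice, out of both spleen and lymph nodes, and 500000 were seeded per well on anti-CD3 (10 μg/mL) and anti-CD28 (5 μg/mL). The pathogenic culture received 20 ng/mL of IL-6 with 20 ng/mL of activin A. The non-pathogenic culture received the same IL-6 dose with 2 ng/mL of TGFβ1. Both cultures also held antibodies that block IFNγ and IL-4, and both were lysed after 24 h, so activin A or TGFβ1 was the labelled difference. How many mice or wells a library pools is not given in the labels. There was 1 library per condition, so no test between conditions was possible and no difference below has a replicate check.

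Counts on named genes came to 30877656 for the pathogenic culture and 33470161 for the other. In every pair of values below the pathogenic library comes first, and every ratio is pathogenic over non-pathogenic. The range in parentheses after a ratio is its 95% exact counting interval, which covers counting error only. Of the CD4 T cell markers, Cd4 (222.7 and 229.9 CPM) and Lck were close to equal, Cd3d was higher in the pathogenic library (log2 ratio 0.27), and Cd3e (−0.59) and Cd3g (−0.45) were lower. Markers of other cells were scarce: the summed CPM was 0.808 and 0.18 for 5 B cell genes, 4.24 and 4.58 for 6 myeloid genes, 0.129 and 0.838 for 5 dendritic cell genes, 0.0647 and 0 for 4 NK cell genes, 1.97 and 2.81 for 4 erythroid genes and 1.91 and 1.89 for 2 CD8 T cell genes. Among them, Pax5, Csf1r, Adgre1, Flt3, Siglech, Ncr1, Klrb1c and Klra8 had no count in either library. The part of these marker differences in the results below was not tested.

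The proteasome core is a barrel whose outer rings of alpha subunits gate the entrance and whose inner rings of beta subunits include the cutting sites. A cap, made of a lid and a base, binds tagged proteins, and ATPases of the base unfold them and feed them into the core. In lymphocytes and in cells exposed to interferon, Psmb8, Psmb9 and Psmb10 can replace the constitutive cutting subunits Psmb5, Psmb6 and Psmb7. The product is the immunoproteasome, known for making peptides for MHC class I. Chaperones assemble the core and the base, and separate activators can dock on the core in place of the cap.

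The promoters of Psmb5 and Psmb6 are shown first, because these constitutive cutting subunits had nearly the same ratio and both hold a match to the antioxidant response element. This element is bound by Nfe2l1 and Nfe2l2, and Nfe2l1 is known for raising proteasome genes when proteasome activity falls short. The stretches come from RefSeq on GRCm38.p6, lie outside GENCODE exons and read 5′ to 3′ along the gene, with the match to TGACNNNGC in capitals. The first, of Psmb5, is chr14:54618023-54618115 on the minus strand, and its match begins 47 bases before the RefSeq start. The second, of Psmb6, is chr11:70525237-70525356 on the plus strand, and its match begins 9 bases before the start.
Psmb5: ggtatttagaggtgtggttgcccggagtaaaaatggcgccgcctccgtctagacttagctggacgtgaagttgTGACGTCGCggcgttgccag
Psmb6: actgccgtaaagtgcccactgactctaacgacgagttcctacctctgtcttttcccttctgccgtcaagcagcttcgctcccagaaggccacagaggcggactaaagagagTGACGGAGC

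The motif was searched on both strands of windows of 300 bases, from 250 before to 50 after each RefSeq start. Windows were matched for 40 of the 47 genes, 43 windows in all. The motif was in 6 of the 43 (14.0%) and in 12.4% of all 32851 windows, so its share among proteasome genes was near that of all genes. To show matches in genes that were not higher in the pathogenic library, those of Psmc6 (chr14:45329587-45329615) and Psmd12 (chr11:107479278-107479299) are printed with their flanks. Both genes are on the plus strand, and the capitals mark the motif as it reads on the opposite strand.
Psmc6: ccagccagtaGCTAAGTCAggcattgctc
Psmd12: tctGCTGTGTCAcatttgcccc

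Genes with the motif had ratios on both sides of equality. The log2 ratios were 0.61 for both Psmb5 and Psmb6, 0.41 for Psmd9, −0.035 for Psme4, −0.065 for Psmc6 and −0.092 for Psmd12. A match describes the letters and is not a measured binding site. Among other motifs, the ETS core CCGGAA was in 48.8% of member windows and 14.9% of all windows, and the GC box GGGCGG in 55.8% and 35.7%. The CCAAT box was in 30.2% and 37.4%. The 20 genes with the ETS core had a median log2 ratio of −0.0014 and the 20 without it 0.21, but −0.0010 and 0.040 with a trend on transcript length and GC removed. With and without the motif, the medians were 0.19 and 0.066 for the antioxidant element (0.17 and 0.0036 with the trend removed), −0.0083 and 0.27 for the GC box (−0.016 and 0.10) and 0.021 and 0.069 for the CCAAT box (0.063 and −0.014). A short form of the interferon-stimulated response element, GAAANNGAA, was in 16.3% of member windows and 8.56% of all, with medians of 0.36 and 0.054 for genes with and without it (0.10 and −0.0035 with the trend removed). The window of Psmb9 did not hold it. Psmb8 and Psmb10 were not among the genes with a match to any of these motifs. Not every member had a window, so absence cannot be read for Psmb8 and Psmb10.

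Most of the 47 genes were near equal in the libraries, and the 4 highest ratios were those of the cutting subunits Psmb8, Psmb9, Psmb6 and Psmb5. All 6 catalytic beta subunits had more CPM in the pathogenic library. Their median log2 ratio was 0.61, within a range of 0.27 to 0.96, and 0.38 with the length and GC trend removed. Trend removal left Psmb8 (0.87) and Psmb9 (0.61) highest, but the chaperones Psmg3 (0.44) and Psmd9 (0.39) came next. Psmb5 was then at 0.29 and Psmb10 at 0.058. The other 41 genes had a median of 0.021, with 24 above 0 and 17 below, beside −0.0045 over all 10597 genes. With the trend removed, the median of the 41 was −0.016. In such bulk libraries, fewer cells of a type and less RNA per cell cannot be told apart.

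A log2 ratio of 0.32 or more in size was used to count differences. In the pathogenic direction 13 of the 47 (27.7%) reached it, beside 16.5% of all genes, and in the other direction 0 did, beside 15.2%. The 13 were Psmb8, Psmb9, Psmb6, Psmb5, Psme2b, Psme2, Psmg3, Psmb4, Psmg4, Psmd9, Psma6, Psmb3 and Psmc1. None of the 47 reached 2-fold in either direction, while 2.25% of all genes did upward and 1.95% downward. Of the 36 with a mean of 50 CPM or more, 6 (16.7%) passed 0.32 upward, beside 9.72% of the 4477 genes as abundant, and 0 downward, beside 10.2%. The counting interval lay above equality for 24 genes, below it for 11 and across it for 12. The same counts were not made over all genes, so no excess among proteasome genes can be read from them.

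**Figure D1:**
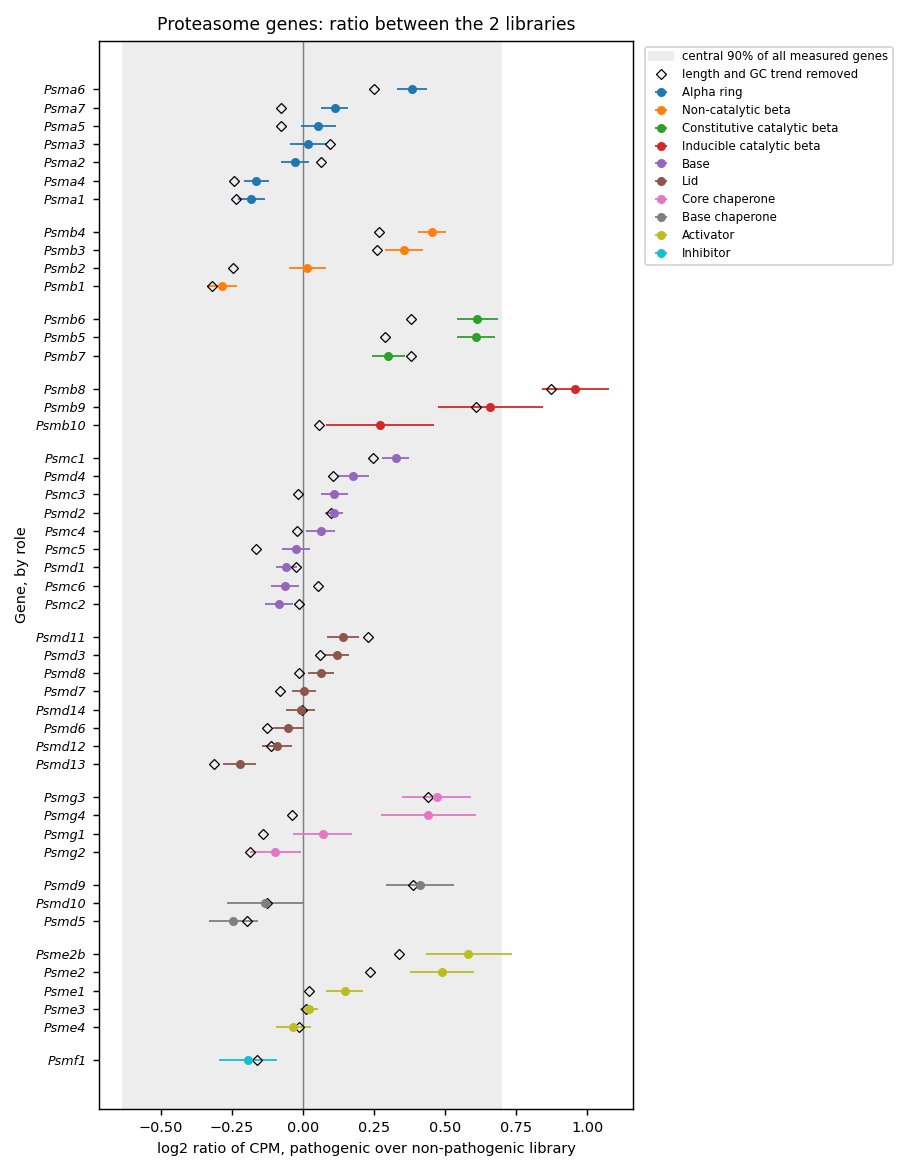
Log2 ratio of CPM, pathogenic over non-pathogenic (x axis), for the 47 measured proteasome genes (y axis, grouped by role). Filled points are ratios with 95% counting intervals, open diamonds the ratios with a length and GC trend removed, and the grey band the central 90% of all measured genes (−0.63 to 0.70). The catalytic beta subunits lie right of 0, and Psmb8 at 0.96 is the only gene beyond the band.

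The ratios also varied with transcript length and base composition. Over all measured genes, those whose longest annotated transcript is under 1000 bases had a median log2 ratio of 0.34, and those of 3000 to 5000 bases had −0.046. Across the 47 proteasome genes the Pearson correlation of the ratio was −0.32 with log2 length and 0.42 with GC share, and across all genes −0.14 and 0.14. These are descriptions across genes of the same 2 libraries, which are not independent replicates. With a smooth trend on length and GC removed, the median of the 47 was −0.0035 in place of 0.064. Then 7 (14.9%) passed 0.32 upward, beside 14.3% of all genes, and 0 downward, beside 16.1%. The 7 were Psmb8, Psmb9, Psmg3, Psmd9, Psmb7, Psmb6 and Psme2b, so the share past 0.32 was then near that of all genes. Psmb8, Psmb9 and Psmb6 passed it with and without the trend, Psmb5 (0.29) only with the trend left in, and Psmb7 only with it removed. Psmb7 was then at 0.38, but at 0.30 when the length implied by counts and FPKM was used for the trend.

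**Figure D2:**
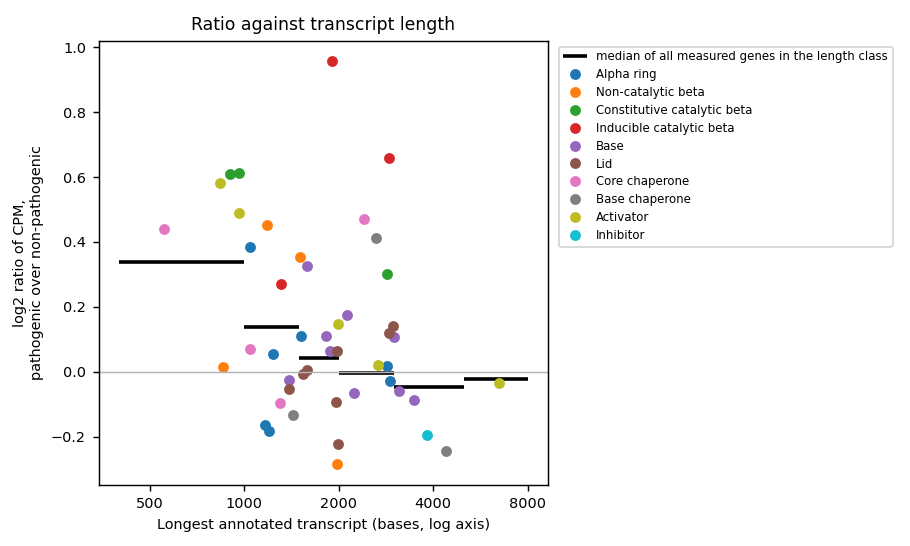
Log2 ratio of CPM (y axis) against the longest annotated transcript in bases (x axis, log scale) for the 47 genes, coloured by role. Black bars are medians of all measured genes per length class, from 0.34 under 1000 bases to −0.046 at 3000 to 5000 bases. Psmb8 and Psmb9 lie far above the bar of their class, and Psmb5 and Psmb6 are among the short transcripts.

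The constitutive cutting subunits were all higher in the pathogenic library. Psmb5 (ENSMUSG00000022193, chromosome 14, 54614119 to 54618022), the chymotrypsin-like subunit, had 4291 and 3042 counts, or 139 and 91.0 CPM, a ratio of 1.52 (1.46 to 1.60). Psmb6 (ENSMUSG00000018286, chromosome 11, 70525367 to 70527858), the caspase-like subunit, had 3819 and 2697 counts, or 123.5 and 80.7 CPM, a ratio of 1.53 (1.46 to 1.61). Psmb7 (ENSMUSG00000026750, chromosome 2, 38588036 to 38644087), the trypsin-like subunit, had 5377 and 4718 counts, or 174 and 141 CPM, a ratio of 1.23 (1.18 to 1.28). By counts, the ratio of Psmb6 was 1.24 times that of Psmb7 (1.17 to 1.32). With the trend removed the log2 ratios were 0.29 for Psmb5, 0.38 for Psmb6 and 0.38 for Psmb7, and that distance was no longer seen.

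Psmb5 is the least certain of the 6, since 74.0% of the 31-base words of its longest transcript also occur in transcripts of other genes, and 61.7% of the words occur in Gm3375. Exons of 11 members overlap an exon on the opposite strand, among them those of Psmb7, Psmb8 and Psmb9. The strand setting of the counting is not given in the sources used here, so such reads cannot be told apart. Exons of 4 members, among them those of Psmb5, Psme2b and Psmg3, overlap an exon of another gene on the same strand.

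The inducible cutting subunits were far less abundant, and they ranged from the highest ratio of all to a modest one. Psmb8 (ENSMUSG00000024338, chromosome 17, 34197721 to 34201454), which replaces Psmb5, had 1651 and 918 counts, or 53.4 and 27.5 CPM. Its ratio of 1.94 (1.79 to 2.11) was the highest of the 47, and its log2 ratio of 0.96 was 0.87 with the trend removed. Psmb9 (ENSMUSG00000096727, chromosome 17, 34181987 to 34187764), which replaces Psmb6, had 605 and 414 counts, or 19.6 and 12.4 CPM, a ratio of 1.58 (1.39 to 1.79). Its log2 ratio was 0.66, and 0.61 with the trend removed. Psmb10 (ENSMUSG00000031897, chromosome 8, 105935735 to 105938444), which replaces Psmb7, had 490 and 439 counts, or 15.8 and 13.1 CPM, a ratio of 1.21 (1.06 to 1.38). Its log2 ratio of 0.27 became 0.058 with the trend removed. The ratio of Psmb8 was 1.61 times that of Psmb10 (1.38 to 1.88) and 1.23 times that of Psmb9 (1.06 to 1.43).

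Each inducible gene was set against the subunit it replaces on the FPKM scale, which is per transcript length. Psmb8 stood at 28.8 and 14.9 FPKM and Psmb5 at 135 and 89.1, so Psmb8 was at 21.3% and 16.8% of Psmb5. The ratio of Psmb8 was 1.27 times that of Psmb5 (1.16 to 1.40). Psmb9 was at 9.83% and 9.48% of Psmb6, and its ratio was 1.03 times that of Psmb6 (0.90 to 1.18). Psmb10 was at 8.05% and 8.23% of Psmb7, and its ratio was 0.979 times that of Psmb7 (0.854 to 1.12). Beyond counting error, the balance within a pair differed for Psmb8 and Psmb5, while the other intervals held equality.

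Removing the trend moved those balances apart. The log2 difference within the pair was then 0.59 for Psmb8 and Psmb5, 0.23 for Psmb9 and Psmb6 and −0.32 for Psmb10 and Psmb7. With the length implied by counts and FPKM, the differences were 0.565, 0.156 and −0.224, in the same order. Summed over the 6 genes, inducible transcripts made up 11.6% and 10.1% of FPKM. These levels depend on the transcript length used: per kilobase of the longest annotated transcript, Psmb9 was at 5.31% and 5.14% of Psmb6, and Psmb10 at 19.8% and 20.2% of Psmb7.

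**Figure D3:**
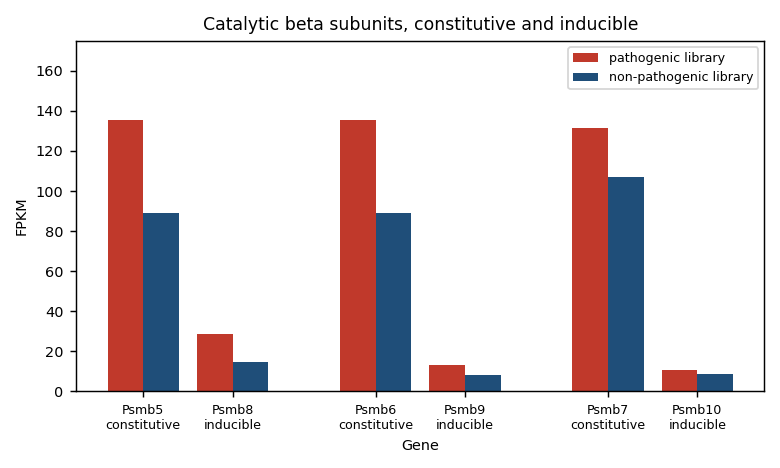
FPKM (y axis) of the 3 constitutive catalytic beta subunits and the inducible subunit that replaces each (x axis), with 1 bar per library. Every gene is higher in the pathogenic library, and the inducible genes stay at or below 28.8 FPKM while the constitutive genes lie between 88.9 and 136.

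Psmb8 and Psmb9 lie in the MHC region beside the genes of the peptide transporter, whose ratios were close to equality. Tap1 had 3154 and 3327 counts and a log2 ratio of 0.035 (−0.036 to 0.11), and Tap2 had 1812 and 1945 counts and 0.0098 (−0.083 to 0.10). Psmb9 and Tap1 are read in opposite directions from RefSeq starts with 225 bases between them, and in GENCODE the genes overlap there. The ratio of Psmb9 was 1.54 times that of Tap1 (1.35 to 1.77). Psmb8 starts past the end of Tap1, with 495 bases between, and its ratio was 1.90 times that of Tap1 (1.72 to 2.09).

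Interferon and class I genes did not move one way. Tapbp, which helps load peptides on class I, had 1692 and 2329 counts and a log2 ratio of −0.35 (−0.44 to −0.26). Irf2, an interferon regulatory factor, was at −0.24 (−0.36 to −0.13), and Irf1, an activator induced by interferon, was at 0.021 (−0.098 to 0.14). Socs1, a feedback inhibitor of cytokine signals, was at 0.23 (0.12 to 0.35). Of the 10 genes on this list, 0 passed 0.32 upward, beside 16.5% of all genes, and the median was 0.013.

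The 4 beta subunits without a cutting site were split. Psmb4 had 7279 and 5746 counts and a ratio of 1.37 (1.32 to 1.42). Psmb3, at 4151 and 3507 counts, had 1.28 (1.22 to 1.34). Psmb2 was equal within counting error, at 119 and 118 CPM. Psmb1, at 5203 and 6854 counts, had the lowest log2 ratio of all 47, −0.29 (−0.34 to −0.23). With the trend removed the log2 ratios were 0.27, 0.26, −0.25 and −0.32, in the same order, and Psmb1 then lay just inside the size used for counting.

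The alpha ring was close to equal as a group, with a median log2 ratio of 0.016 and 4 of 7 genes above 0. Psma6 was highest, at 6475 and 5364 counts and a ratio of 1.30 (1.26 to 1.35). Psma1 was lowest, at 6381 and 7824 counts and a log2 ratio of −0.18 (−0.23 to −0.13). The ring took 0.137% of counts in the pathogenic library (0.136 to 0.138) and 0.135% in the non-pathogenic library (0.134 to 0.137). Alpha subunits enter the particle in equal number, but their transcripts spanned 47.0 (Psma3) to 229 FPKM (Psma7) in the first library and 44.0 to 215 FPKM, for the same genes, in the second. That is a span of 4.88-fold and 4.89-fold. The span depends on the length used for FPKM, and counts and FPKM imply 2797 bases for Psma3 and 1052 for Psma7. By CPM, Psma3 was at 127.9 and 126.4 and Psma7 at 242.6 and 224.7. Of the 31-base words of Psma3, 27.1% also occur in other genes.

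**Figure D4:**
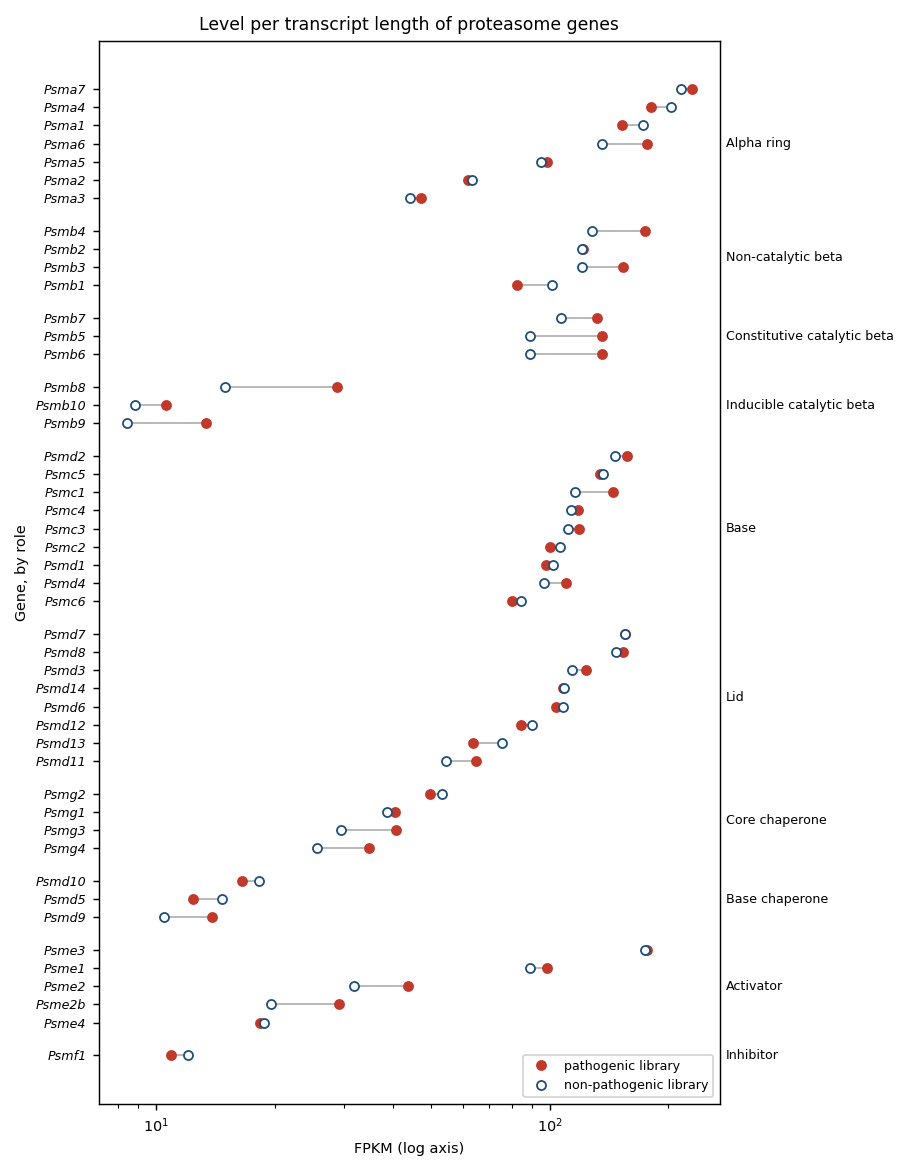
FPKM (x axis, log scale) of the 47 measured genes (y axis, grouped by role), with filled points for the pathogenic and open points for the non-pathogenic library. The alpha ring spans 44.0 to 229 FPKM. The inducible subunits, the base chaperones, Psme4 and Psmf1 lie at the low end, at 28.8 FPKM or less in both libraries.

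The cap was nearly level. The 9 base genes had a median log2 ratio of 0.062 and the 8 lid genes −0.0019, with 4 lid genes on each side of 0. Psmc1, an ATPase, was highest in the base, at 8117 and 6999 counts and a log2 ratio of 0.33 (0.28 to 0.37), although 39.7% of its 31-base words recur in other genes. Psmc2, another ATPase, was lowest, at 6291 and 7215 counts and −0.086 (−0.13 to −0.037). In the lid, Psmd11 was highest, at 5227 and 5122 counts and a log2 ratio of 0.14 (0.085 to 0.20) by counts but 0.25 by FPKM. Psmd13 was lowest, at 4369 and 5513 counts and −0.22 (−0.28 to −0.17). Psmd14, the enzyme that takes ubiquitin off the substrate, was equal within counting error at 5865 and 6375 counts. Base and lid together took 0.402% and 0.391% of counts.

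The assembly chaperones went both ways. Psmg1 and Psmg2 form a pair that helps build the alpha ring, as do Psmg3 and Psmg4. The latter pair was higher in the pathogenic library, with Psmg3 at 1246 and 972 counts and a ratio of 1.39 (1.27 to 1.51), and Psmg4 at 668 and 532 counts and 1.36 (1.21 to 1.52). Psmg1 had a log2 ratio of 0.069 (−0.035 to 0.17), and Psmg2, the lowest, had 1855 and 2145 counts and −0.098 (−0.19 to −0.0072). Psmg4, whose longest transcript of 555 bases is the shortest of the members, changed to −0.039 with the trend removed, while Psmg3 was at 0.44, or at 0.24 when the length implied by counts and FPKM was used for the trend. Of the base chaperones, Psmd9 had 1271 and 1033 counts and a ratio of 1.33 (1.22 to 1.45). Psmd5 had 1918 and 2457 counts and a log2 ratio of −0.25 (−0.33 to −0.16), and the interval of Psmd10 held equality.

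The activators Psme1 and Psme2, which form a joint ring known to be induced by interferon, had unequal ratios. Psme1 had 3852 and 3760 counts, or 125 and 112.5 CPM, a ratio of 1.11 (1.06 to 1.16). Psme2 had 1482 and 1141 counts, or 47.9 and 34.1 CPM, a ratio of 1.40 (1.30 to 1.52). The ratio of Psme2 was 1.27 times that of Psme1 (1.16 to 1.39), and its log2 ratio of 0.49 became 0.24 with the trend removed.

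Psme2b, a near-copy of Psme2 on chromosome 11, had 862 and 622 counts, or 27.9 and 18.6 CPM, a log2 ratio of 0.58 (0.43 to 0.73). Psme2 shares 66.2% of its 31-base words with Psme2b, so reads may be divided between them, and their summed counts of 2344 and 1763 gave a ratio of 1.44 (1.35 to 1.53). Psme3, a nuclear activator, was the most abundant member by CPM, at 533 and 525, and was equal within counting error. Psme4, another nuclear activator, had 4100 and 4539 counts, or 133 and 136 CPM, and its interval held equality. Psmf1, described as an inhibitor of the core, had 1411 and 1744 counts, or 45.6 and 52.2 CPM, a log2 ratio of −0.19 (−0.30 to −0.092).

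Psma8, an alpha subunit of the testis, and Psmb11, a beta subunit of thymic epithelium, were under the filter. Psma8 had 0 and 16 counts, 4.93-fold lower in the pathogenic library when a floor of 3 counts is put in place of the 0. Its counting interval begins at 3.57-fold, or at a log2 ratio of −0.66 with halved counts. The value rests on 16 counts in the non-pathogenic library. Psmb11 had 3 counts in each library. Psmc3ip, which only shares the symbol, had 1067 and 874 counts and a ratio of 1.32 (1.21 to 1.44).

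Proteasome parts with other symbols included 3 genes past 0.32 in the pathogenic direction. Sem1, a small lid subunit, had 2000 and 1435 counts and a ratio of 1.51 (1.41 to 1.61). Pomp, the chaperone of the beta ring, had 6342 and 4989 counts and 1.37 (1.32 to 1.43), and Adrm1, a ubiquitin receptor of the base, had 4513 and 3876 counts and 1.26 (1.21 to 1.31). With the trend removed their log2 ratios were 0.65, 0.49 and 0.32. Akirin2, which helps bring proteasomes into the nucleus, was at −0.13 (−0.26 to 0.0023). Of the 9 measured genes on this list 3 passed 0.32 upward, beside 16.5% of all genes, and 0 downward, beside 15.2%, with a median of 0.062.

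Regulators of proteasome genes stayed within 0.32 of equality. Nfe2l1 had 3874 and 3456 counts and a ratio of 1.21 (1.16 to 1.27), and Mafk, a small Maf protein that pairs with such factors, also had 1.21 (1.14 to 1.29). Nfe2l2 was lower, at 1573 and 1874 counts and a log2 ratio of −0.14 (−0.24 to −0.043). Ddi2, the protease that activates Nfe2l1, was at a log2 ratio of −0.23 (−0.28 to −0.18), and Syvn1, a ubiquitin ligase that acts on it, at −0.24 (−0.34 to −0.14). The median of the 8 genes was −0.043. The 14 genes for ubiquitin, its activation and its shuttles had a median log2 ratio of 0.027, and 0 passed 0.32 downward, beside 15.2% of all genes. Rad23b, a shuttle for tagged proteins, had a ratio of 1.23 (1.20 to 1.27). Another shuttle, Ubqln1, was at −0.22 (−0.26 to −0.18) on the log2 scale, as was the ubiquitin-activating enzyme Uba1 (−0.23 to −0.20).

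The 47 genes together took 0.779% of counts in the pathogenic library (0.776 to 0.782) and 0.739% in the non-pathogenic library (0.736 to 0.742). The 6 catalytic subunits took 0.0526% and 0.0365%, a summed ratio of 1.43 (1.40 to 1.47). The other 41 took 0.726% and 0.703%, a summed ratio of 1.03 (1.03 to 1.04).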

How the data were processed

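Libraries were made from polyadenylated RNA, per the labels' protocols. The authors deposited whole-number counts and FPKM values per gene, per the file headers. The submitters' processing notes name the build mm10. Aligner, counting program and annotation: not given in the sources used here. Features with no gene name (2.5% and 2.9% of counts) were left out.

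Library sizes were scaled by TMM (edgeR 4.0.16, R 4.3.3), with DESeq2 1.42.0 size factors as an alternative. Log2 ratios used a prior count of 1. Intervals are Clopper-Pearson, or exact conditional for ratios of ratios (scipy 1.17.1). They may be too narrow: counts of 2 were 3.42 and 4.37 times as frequent as counts of 1, and PCR copies were not marked by molecular identifiers. The trend was a loess fit (span 0.5) on length and GC of the longest GENCODE M21 transcript. The calculations were tested on simulated data. No test between conditions was made.

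The members and lists were chosen with earlier results of these data known. Named by rule were the catalytic subunits, the activators, the inhibitor, the highest and lowest of each other group, genes under the filter, up to 4 of the largest ratios at 5 CPM or more in each of 4 outside lists, and 8 preset genes. Psmb2, Psmd14, Psmd10, Psmg1, Nfe2l2 and the genes named for a motif were added after their values were seen. Paaf1 and Trac were not analysed here. Some genes of the outside lists and markers are not reported here.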

Additional observations from a re-analysis of the deposited data

How the results depend on the processing

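Scaling by total counts or by DESeq2 size factors, a prior count of 5, halved counts (chosen after seeing the data) and centring on all genes left the log2 ratio of each of the 47 genes inside its counting interval, and FPKM left 45 there. Intervals from halved counts lay above equality for 22 genes, below it for 9 and across it for 16, again with no such counts over all genes. Removing the length and GC trend moved 31 ratios out of their intervals and turned that of Psmg4 to −0.039. The median log2 ratio became −0.0035 for all members, −0.077 for the alpha ring, 0.0053 for non-catalytic beta, 0.38 for constitutive catalytic beta, −0.013 for the base, −0.090 for core chaperones, 0.022 for activators and −0.013 for the ubiquitin list, and 7 genes passed 0.32 upward. A mean of 50 CPM or more left 6 such genes, core chaperones at −0.098 (Psmg2 alone), activators at 0.021 and no inducible subunit. With no filter, 1 gene (Psma8) passed 0.32 and 2-fold downward. Per kilobase of longest transcript, Psmb8 was at 18.1% and 14.2% of Psmb5, Psmb9 at 5.31% and 5.14% of Psmb6 and Psmb10 at 19.8% and 20.2% of Psmb7.

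Other settings were chosen after seeing the data. With the trend fitted over genes of 50 CPM or more, the same member medians were −0.0045, −0.075, 0.0098, 0.34, −0.017, −0.076 and 0.022, the lid was at −0.055, Psmg4 at −0.017, and 7 genes passed upward and 1 (Psmb1) downward. With the length implied by counts and FPKM they were −0.0059, −0.051, −0.069, 0.31, −0.0059, −0.081 and 0.033, the lid was at −0.051, Psmg4 at −0.045, and 5 genes passed upward. Without members sharing over 30% of their 31-base words, constitutive catalytic beta was at 0.46, the base at −0.024 and activators at 0.021. No paired analysis was possible because each condition has 1 library, and leaving out a library leaves no comparison. Depth limits Psmb10, Psmb9 and Psmg4 most, whose counting intervals were the widest, at 0.378, 0.367 and 0.334 on the log2 scale.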
